A study of Coturnix japonica with 42 samples.

Results

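The genes described here encode proteins of the extracellular matrix and the integrin receptors that bind it, followed in the mediobasal hypothalamus of quail as the birds were moved from short to long days. Members were taken by symbol in the platform annotation, as collagen chains, laminin chains, integrin chains, decorin (DCN), lumican (LUM), fibromodulin (FMOD), biglycan (BGN) and fibronectin (FN1). The rule found 77 genes among the 13009 with a single symbol, carried by 204 of the 38439 probe sets that are not controls. They comprise 41 collagen chains, 11 laminin chains, 16 integrin chains, 4 small leucine-rich proteoglycans and FN1. The remaining 4, ITGB1BP1, ITGB1BP3, ITGB3BP and ITGBL1, share only the start of an integrin symbol and are no integrin chains. Each gene was represented by its brightest probe set over all arrays. For all 77 that probe set passed the filter on low signal, which asked for a signal above the median of the array on at least 2 arrays. Since 2 high arrays are enough to pass, the number that passed is no evidence about the set.

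The extracellular matrix is a meshwork of collagens, laminins, fibronectin and proteoglycans, and integrins are paired alpha and beta chains that tie it to the cytoskeleton. In brain, fibrillar collagens and decorin lie mainly in the meninges and around vessels, whereas laminins and collagen IV form the basement membranes of vessels and of the brain surface. The mediobasal hypothalamus holds the median eminence and the tanycytes that line the third ventricle, and in quail it is where thyroid hormone is activated when days lengthen.

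The birds were male Japanese quail aged 8 weeks, kept for 4 weeks on a cycle of 6 h light and 18 h dark before a switch to 20 h light and 4 h dark. The labels give neither a unit of time nor the hour of lights on, and times were taken as hours counted from the beginning of the sampled short day. The second long day had 12 arrays (50 through 70 h), the first long day had 18 (26 through 46 h) and the short day had 12 (2 through 22 h), with 2 arrays at each of 21 time points. Each array held RNA pooled from 3 birds, so n counts pools, which the labels call biological replicates. No genotype, drug or surgery is named for any group, and all birds share the short-day history. The probes were designed on chicken sequence, and the values of different probe sets are not compared as levels. In such whole-tissue RNA, fewer cells of a type and less RNA per cell cannot be told apart.

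Signal below is the deposited intensity after each array was scaled to a common trimmed mean, with values under 3.51 raised to that floor. As deposited, the arrays of the second long day were dimmer, with a median trimmed mean of 28.1 against 34.2 on the short day, and 33.5 on the first long day. The 3' to 5' ratio of actin, a sign of RNA integrity, had medians of 7.88, 7.72 and 7.65 on the second long, first long and short days. The signals of both arrays of a time point correlated at a median of 0.895 on the log2 scale, and the lowest value, 0.812, was at 62 h. Of the hypothalamic markers, NKX2-1, a transcription factor of the ventral hypothalamus, averaged 796 and NPY, a neuropeptide of the arcuate nucleus, 2504 over all arrays. GNRH1 was at the floor on 24 of 42 arrays. Of both genes named as markers of the matrix set, DCN was above the floor on all arrays, while FMOD lay at the floor on 18 of 42.

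On the second long day 3 of the 77 members passed the test against the short day, and all 3 were lower: the integrin chain ITGA1, DCN and FMOD. The other 74 members did not pass, among them all 41 collagen chains, all 11 laminin chains and FN1. The 3 called members are 3.90% of the set. Among all 32057 tested probe sets 1.37% were called, 0.970% as lower, and among the 12289 genes whose brightest probe set was tested 2.08% were called, 1.60% as lower. At an unadjusted p below 0.05 the share was 13% of members (10 of 77) against 11.9% of all tested probe sets. The median log2 difference over the members was -0.02, against 0.04 over all tested probe sets, with 36 members above 0 and 41 below. In all 77 members the ranges of the single arrays of both days overlapped. This was not counted over all probe sets, so it is no evidence about the set.

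**Figure D1:**
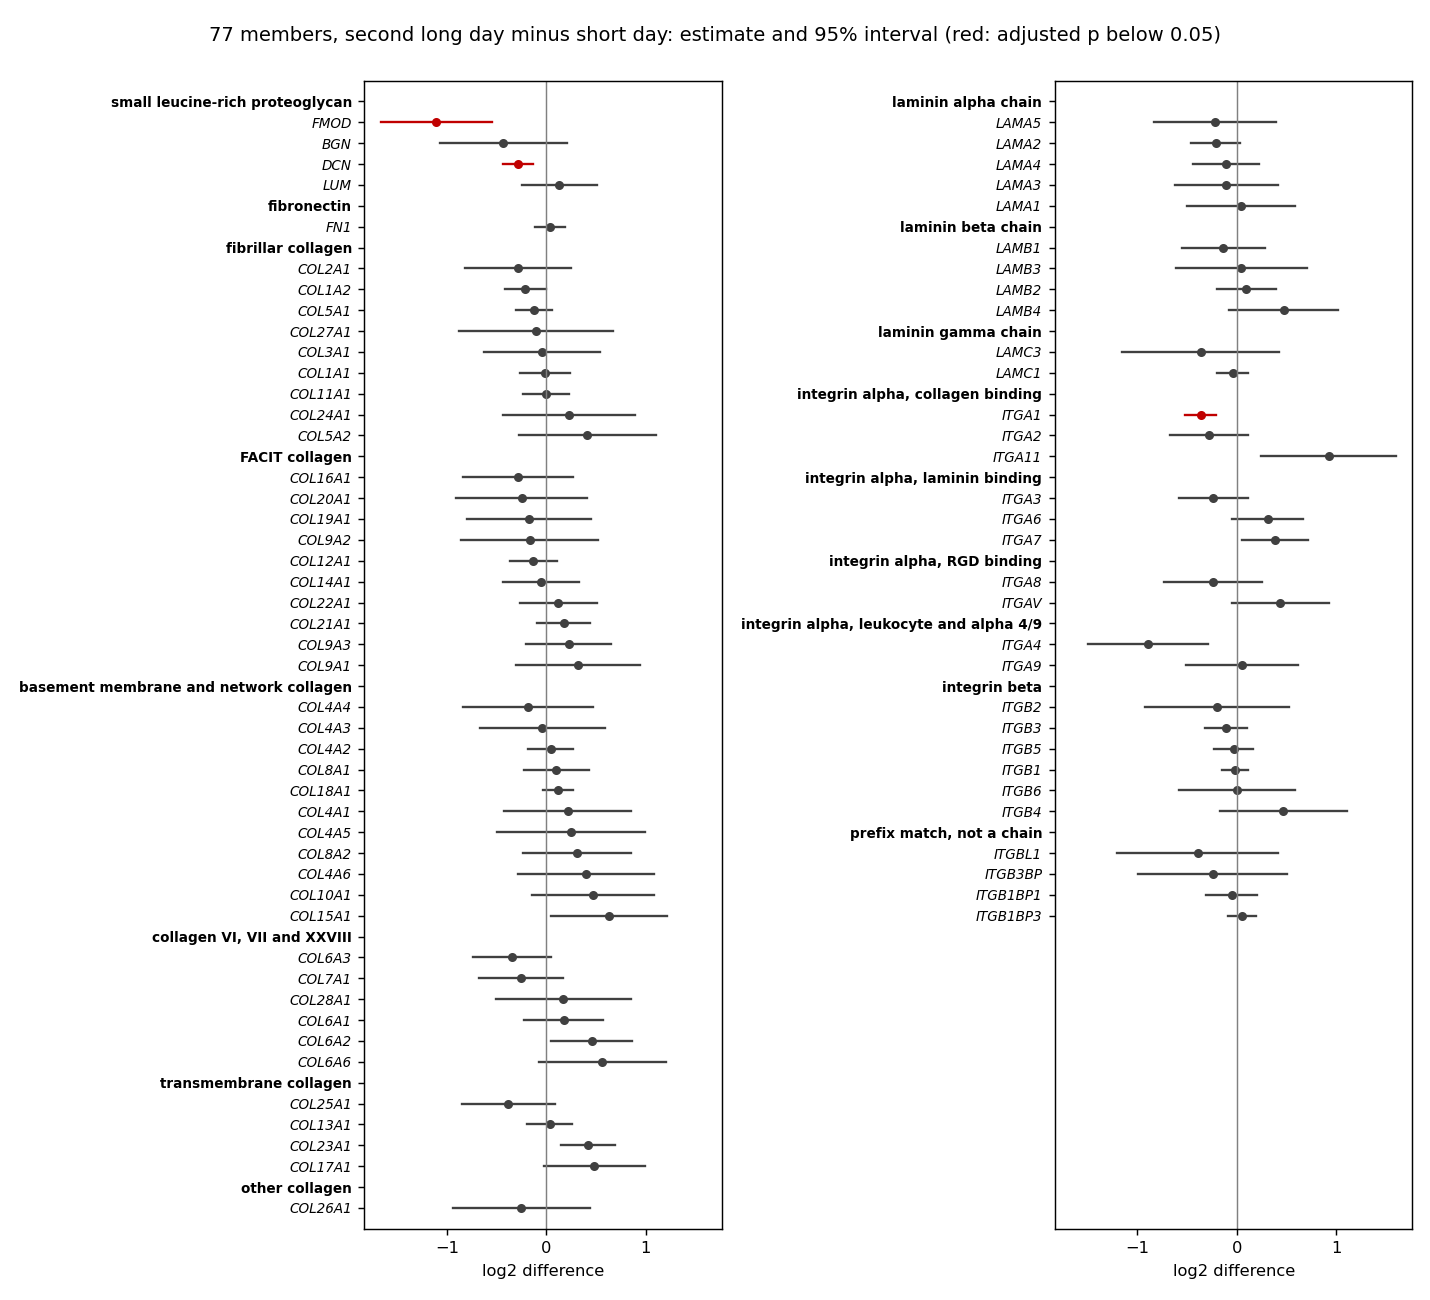
Log2 difference of each of the 77 members, second long day minus short day (x axis), grouped by role, with the limma estimate as a point and its 95% interval as a line. ITGA1, DCN and FMOD, in red, lie below 0 with an adjusted p under 0.05, and the other 74 intervals are drawn in grey.

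ITGA1, the chain that pairs with ITGB1 to form a receptor for collagen, was the member with the smallest p. Its signal on the second long day had a lowest, median and highest value of 122, 146 and 183, against 157, 184 and 219 on the short day (12 arrays each). All 12 arrays of the second long day lay below the short-day median, and 9 of them lay below every short-day array. The means were 147 ± 18.4 and 189 ± 19.7 (SD, n = 12), a log2 difference of -0.36 (95% interval -0.52 to -0.21, limma adjusted p = 0.00637), or 1.29-fold lower, with the same sign at 6 of 6 hours. Within the short day the arrays of 2 h read 219 and 209, those of 10 h 185 and 219, and those of 22 h 157 and 177, and its daily profile did not pass the test (limma adjusted p = 1). The call held when any 1 of the arrays was left out (42 of 42) and was lost without a variance trend (limma adjusted p = 0.0695), and without scaling the log2 difference was -0.63. On the first long day ITGA1 ranged from 124 to 198 with a median of 152. This median lay nearer the 146 of the second long day than the 184 of the short day. ITGB1, its partner chain, read 398, 487 and 617 on the second long day and 422, 497 and 609 on the short day, with a log2 difference of -0.02 (interval -0.15 to 0.11, limma adjusted p = 0.954).

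DCN, a small proteoglycan that binds collagen fibrils and growth factors, was also lower on the second long day. The lowest, median and highest signals were 441, 633 and 732 on the second long day and 519, 725 and 850 on the short day. The ranges overlapped widely, yet 11 of the 12 second-long-day arrays lay below the short-day median and 4 lay below all short-day arrays. The means of 601 ± 97 and 731 ± 98.8 (SD, n = 12 each) gave a log2 difference of -0.29 (interval -0.44 to -0.14, limma adjusted p = 0.0414), a 1.22-fold lower signal with that sign at 5 of 6 hours. Within the days, DCN read 850 and 806 at 2 h, 839 and 829 at 10 h, and 519 and 693 at 18 h. On the first long day it reached its highest time point, with 856 and 975 at 34 h, and then read 643 and 492 at 44 h. The lowest time point was 62 h, with 648 and 441, which is also the time with the lowest correlation between its arrays. The call of DCN was lost under quantile normalization (limma adjusted p = 0.154), without the filter (0.0716), without a variance trend (0.225), with only the compared arrays (0.0769) and with p-values adjusted over means of all probe sets of a gene (0.0805), and without scaling the log2 difference was -0.55. It held in 24 of 42 fits that left out 1 array, and was lost without any 1 short-day array other than replicate 1 of 18 h, without either array of 58 h, and without replicate 1 of 54 or 70 h or replicate 2 of 50, 62 or 66 h (limma adjusted p up to 0.112). No daily profile of DCN passed (limma adjusted p = 1, 1 and 0.717 for the short, first long and second long days). Second minus first long day, the difference was -0.25 (interval -0.40 to -0.09, limma adjusted p = 0.268).

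FMOD, a collagen-binding proteoglycan close to LUM, was dim on every day. On the second long day 8 of 12 arrays were at the floor, the median was the floor itself and the highest array read 8.5, against 2 of 12 at the floor on the short day, a median of 9.59 and a highest value of 19.1. The 12 second-long-day arrays all lay below the short-day median, and 8 short-day arrays lay above every second-long-day array. The floored means of 4.43 ± 1.74 and 10.4 ± 5.39 (SD, n = 12 each) gave a log2 difference of -1.11 (interval -1.67 to -0.55, limma adjusted p = 0.0288, 5 of 6 hours). As most arrays of the second long day carried the floor in place of a measured value, the size of this difference depends on the floor. With the floor at 10 the log2 difference was -0.25 and the call was lost (limma adjusted p = 0.232), as it was with only the compared arrays (0.0869). It held in 33 of 42 fits that left out 1 array, and was lost without replicate 1 of 2 or 58 h or replicate 2 of 6, 10, 14, 18, 22, 50 or 66 h (limma adjusted p up to 0.0843). On the first long day the arrays of 30 h read 18.7 and 25, and that of 25 was the highest of the series. After this 7 of the arrays from 34 to 44 h read between 3.77 and 10.7. The rest of those arrays and both of 46 h were at the floor.

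The 3 calls rest on a fit in which array brightness is handled by scaling alone. With the trimmed mean of each array as a covariate, 0 of 77 members passed, and the adjusted p was 0.0683 for ITGA1 (log2 difference -0.42), 0.130 for FMOD (-1.35) and 0.130 for DCN (-0.36). The part of array brightness in these differences was not tested further.

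**Figure D2:**
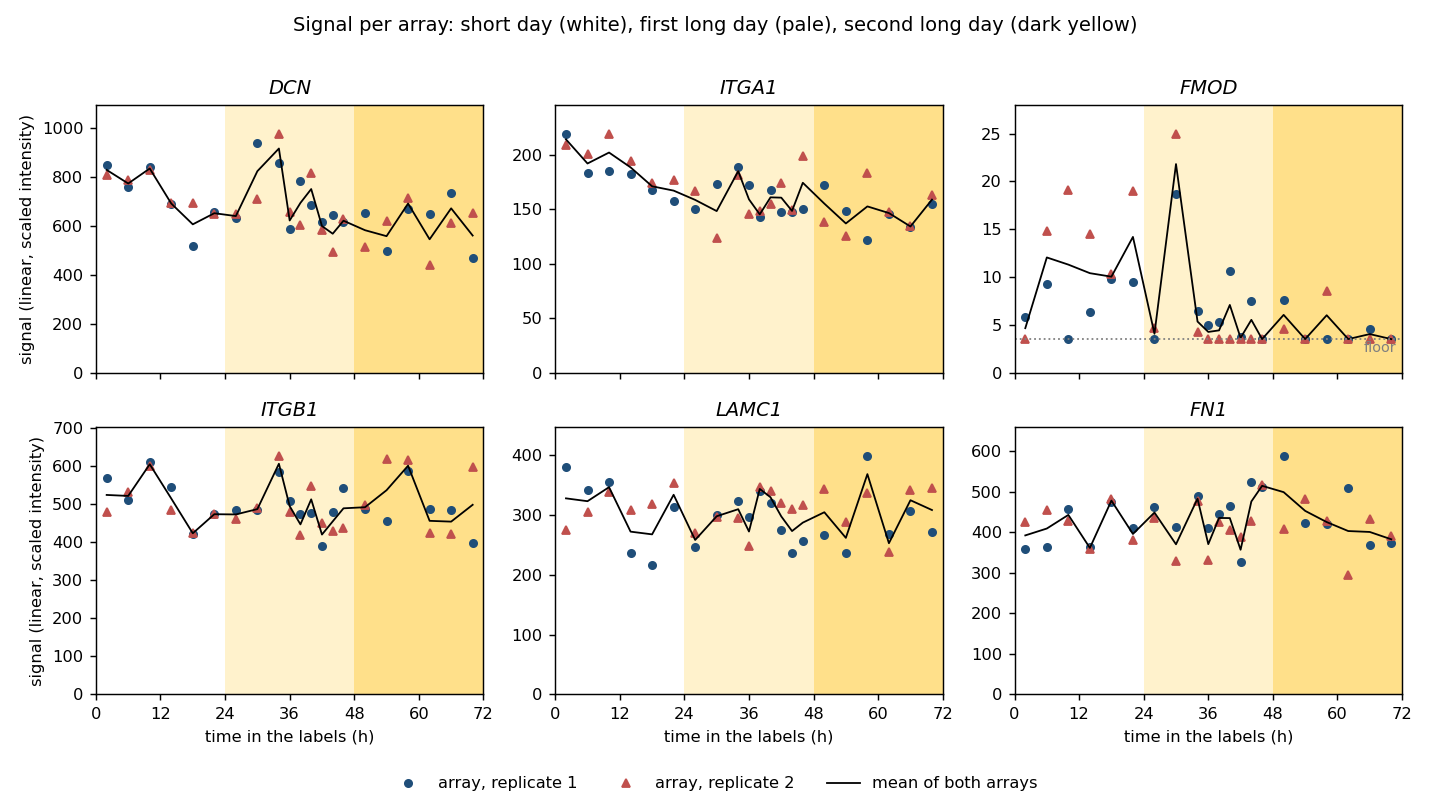
Scaled signal (y axis, linear, from 0) against time in the labels in hours (x axis) for the 3 called members in the upper row and 3 bright members that were not called in the lower row, with each array as a symbol and the mean of both arrays as a line. ITGA1 and DCN sit lower on the second long day, and FMOD mostly runs along the floor there. In every panel the ranges of the second long day and the short day overlap.

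The other proteoglycans of this family did not pass. LUM, which spaces collagen fibrils, read 16.2, 31.7 and 42.7 on the second long day and 13.1, 28.8 and 42.3 on the short day, with a log2 difference of 0.13 (interval -0.25 to 0.51, limma adjusted p = 0.846). BGN, a relative of decorin, had a mean of 6.39 on the second long day and 8.23 on the short day. Its log2 difference was -0.44 (interval -1.07 to 0.20, limma adjusted p = 0.639). A second BGN probe set of similar mean signal gave 0.02 (interval -0.59 to 0.63). The interval of BGN includes the difference seen for DCN, and that of LUM does not.

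Among the 9 fibrillar collagen chains, 7 differences were below 0 and 2 above, with a median of -0.04, and none passed. COL1A2, a chain of collagen I, read 66.9, 80.1 and 104 on the second long day and 77.5, 94.7 and 123 on the short day, so that 10 of 12 second-long-day arrays lay below the short-day median. Its log2 difference was -0.21 (interval -0.42 to -0.01, limma adjusted p = 0.404), with that sign at 6 of 6 hours. COL1A1, the partner chain in collagen I, averaged 124 ± 27 against 125 ± 25.4 on the short day (SD, n = 12 each), a log2 difference of -0.02 (interval -0.27 to 0.24). For COL1A2 the sign depended on the probe set: over all its probe sets together the log2 difference was 0.025. COL11A1, a minor fibrillar chain, stood at 118 ± 27 on the second long day and 120 ± 31.1 on the short day. COL2A1, the collagen of cartilage, was at 23.2 ± 14.3 on the second long day and 26.7 ± 11.6 on the short day. Its log2 difference was -0.29 (interval -0.82 to 0.24), and the residual SD of its single arrays was 0.71. COL24A1, a fibrillar chain known from developing bone, read 3.51, 5.26 and 54.7 on the second long day and 3.51, 4.50 and 23 on the short day.

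The 11 basement membrane and network collagens leaned the other way, with 9 differences above 0 and 2 below and a median of 0.21, yet 0 of 11 passed. COL18A1, the precursor of endostatin, averaged 154 ± 20.3 on the second long day and 142 ± 13.1 on the short day (log2 difference 0.12, interval -0.04 to 0.27, limma adjusted p = 0.582). COL15A1, a vascular basement membrane collagen, had 7.92 ± 3.80 and 5.01 ± 2.47 on these days (0.63, interval 0.05 to 1.21, limma adjusted p = 0.369). It was at the floor on 15 of 42 arrays. A second, dimmer COL15A1 probe set gave 0.0008 (interval -0.42 to 0.42). COL4A2, one of the ubiquitous collagen IV chains, was at 61.9 ± 11.2 and 60.1 ± 10.9 (0.04, interval -0.18 to 0.27). COL4A6 reached 16.4 ± 10.4 on the second long day against 12 ± 7.83 on the short day, with an interval from -0.29 to 1.08. These dim chains had wide intervals, and a direction shared by several of them was not tested as such.

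Of the 10 collagens that decorate fibrils, 4 lay above 0 and 6 below, with a median of -0.09 and no call. COL12A1, the brightest of them, had 47.1 ± 8.84 on the second long day and 52.0 ± 10.9 on the short day (log2 difference -0.13, interval -0.37 to 0.10). COL9A1, of cartilage fibrils, averaged 9.26 ± 5.03 and 8.38 ± 7.01 on these days. In the class of collagens VI, VII and XXVIII, 4 of 6 were above 0. COL6A2 and COL6A3, chains of the microfibril-forming collagen VI, gave 0.46 (interval 0.05 to 0.86, limma adjusted p = 0.340) and -0.35 (interval -0.74 to 0.05, limma adjusted p = 0.510). Their signs were opposite, but neither chain was called and this contrast was not tested. A second probe set of COL6A2 gave 0.05 (interval -0.40 to 0.51). COL6A6, another chain of that class, averaged 13.1 ± 10.5 on the second long day and 8.15 ± 5.44 on the short day, and COL7A1, of anchoring fibrils, 24.7 ± 8.62 and 30.6 ± 12.7.

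Among the 4 transmembrane collagens, COL23A1 was the uncalled member with the smallest p. Its signals were 39.8, 50.2 and 68.9 on the second long day and 24.2, 39.6 and 53.4 on the short day. All 12 second-long-day arrays were above the short-day median, 5 of them above every short-day array. The log2 difference was 0.42 (interval 0.15 to 0.69, limma adjusted p = 0.123), positive at 6 of 6 hours. Other tested probe sets of COL23A1, both dimmer, gave 0.54 (interval -0.18 to 1.25) and -0.28 (interval -0.92 to 0.35). COL17A1, a hemidesmosome component, gave 0.48 (interval -0.03 to 0.99, limma adjusted p = 0.462), and COL13A1, found at cell contacts, 0.03 (interval -0.19 to 0.26). COL26A1, which fell in no other class, was at the floor on 14 of 42 arrays.

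The 11 laminin chains gave no call, with 4 above 0 and 7 below and a median of -0.11. LAMC1, the gamma chain of most laminins, read 236, 297 and 398 on the second long day and 216, 316 and 380 on the short day (log2 difference -0.04, interval -0.20 to 0.12, limma adjusted p = 0.897). The arrays of both days overlapped over most of their range. LAMA2, the alpha chain of laminins at vessels and muscle, averaged 42.6 ± 9.93 and 49.0 ± 8.96 on these days (-0.21, interval -0.46 to 0.04). LAMB1 and LAMB2, beta chains of basement membrane laminins, differed by -0.13 (interval -0.55 to 0.29) and 0.09 (interval -0.20 to 0.39). LAMB3, LAMB4 and LAMA1 averaged 13.6, 14.2 and 22.2 on the second long day and 13.4, 9.96 and 22.2 on the short day.

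Beside ITGA1, the integrin alpha chains covered a wide span without passing. ITGA4, a chain of leukocyte and neural crest integrins, had 5.71 ± 3.57 on the second long day, with 5 of 12 arrays at the floor, and 10.1 ± 4.22 on the short day, with none there. Its log2 difference was -0.89 (interval -1.5 to -0.29, limma adjusted p = 0.159). A second ITGA4 probe set of similar mean signal gave 0.07 (interval -0.43 to 0.58). ITGA11, a collagen receptor of fibroblasts, had 17.5 ± 8.88 and 9.56 ± 5.40 (0.93, interval 0.25 to 1.61, limma adjusted p = 0.205), while ITGA2, which binds the same ligand, had 23.4 ± 9.33 and 27.1 ± 7.77 (-0.28, interval -0.67 to 0.11). A second, dimmer ITGA11 probe set gave 0.27 (interval -0.45 to 1.00). The estimates of the 3 collagen-binding alpha chains had both signs, but ITGA11 and ITGA2 were not called and this contrast was not tested. Of the laminin receptors, ITGA7 differed by 0.39 (interval 0.06 to 0.72, limma adjusted p = 0.309), ITGA6 by 0.31 (interval -0.05 to 0.67) and ITGA3 by -0.24 (interval -0.58 to 0.11). ITGAV, a receptor for fibronectin and vitronectin, lay at the floor on 24 of 42 arrays, ITGA8, a receptor of the same ligand motif, differed by -0.24 (interval -0.73 to 0.25), and ITGA9 by 0.05 (interval -0.51 to 0.61). The 6 beta chains had a median of -0.02, with 2 above 0.

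FN1, which links integrins to collagen, read 296, 423 and 589 on the second long day and 358, 419 and 483 on the short day. The log2 difference was 0.04 (interval -0.12 to 0.19, limma adjusted p = 0.904), and the arrays of the second long day spread more widely around a like median. ITGB1BP3, whose product binds the integrin beta chain without being part of it, averaged 2307 ± 253 and 2222 ± 139 on these days (0.05, interval -0.09 to 0.19).

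How firmly a missing call can be read depended on brightness. Among the 74 uncalled members, 21 had an interval within ±0.5 on the log2 scale (a 1.41-fold change), 62 within ±1 (a 2-fold change) and 12 reached beyond 1. The median half-width was 0.19 for the 16 members with a mean signal over 50, 0.39 for the 26 between 20 and 50, 0.66 for the 19 between 10 and 20 and 0.63 for the 16 under 10. In 35 members at least 1 array lay at the floor, and in 5 members at least 21 of 42 arrays did.

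**Figure D3:**
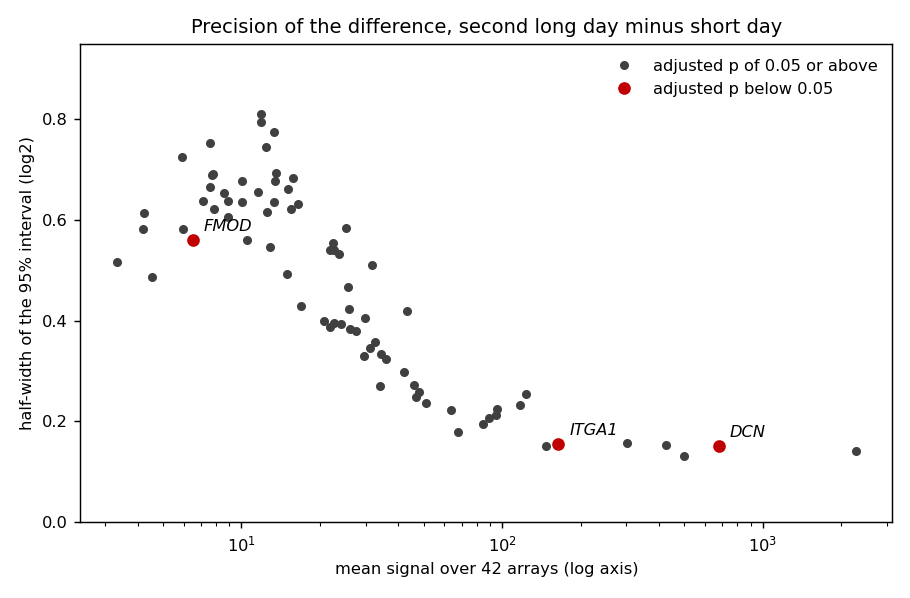
Half-width of the 95% interval of the difference, second long day minus short day (y axis, log2), against the mean signal of each of the 77 members over 42 arrays (x axis, log scale). Bright members such as DCN and ITGA1 lie near 0.15, whereas members with signals near 10 lie between about 0.5 and 0.8.

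On the first long day, over hours 10 to 22, no member passed against the short day (0 of 77, 8 arrays each), where 0.0561% of all tested probe sets were called. At an unadjusted p below 0.05 there were 5 members (6.49%), against 5.63% of all tested probe sets, and the median log2 difference over the members was 0.00. FMOD had the smallest p, with signals of 3.51, 3.64 and 6.44 on the first long day and 3.51, 10.0 and 19.1 on the short day at these hours. Its log2 difference was -1.30 (interval -1.98 to -0.61, limma adjusted p = 0.299), below 0 at 4 of 4 hours. This comparison and that of the second long day share the same short-day arrays and are not independent. DCN stood at 0.01 (interval -0.17 to 0.20, limma adjusted p = 0.997) and ITGA1 at -0.14 (interval -0.32 to 0.05, limma adjusted p = 0.935). COL17A1 differed by 0.79 (interval 0.17 to 1.42, limma adjusted p = 0.803), LAMB3 by -0.89 (interval -1.69 to -0.08, limma adjusted p = 0.850) and COL2A1 by -0.71 (interval -1.36 to -0.05, limma adjusted p = 0.860). The remaining members with small p were ITGA8 at -0.60, LUM at -0.46, ITGA2 at -0.48, ITGA11 at 0.81, COL3A1 at -0.68, LAMB4 at 0.63, LAMA1 at -0.61, COL8A2 at 0.57, COL4A2 at 0.23, COL8A1 at 0.31 and COL7A1 at -0.39, with limma adjusted p from 0.887 to 0.925. Dimmer tested probe sets of these genes did not always share the sign. They gave -0.004, -0.35 and 0.08 for COL2A1, and 0.29, -0.15, -0.19 and -0.19 for COL3A1. For LAMA1 they gave 0.20, -0.18 and -0.15, and for COL8A1 -0.67 and -0.05. Those of COL4A2 gave -0.19, -0.05, 0.03, -0.33 and -0.29. Those of ITGA8, ITGA11 and LAMB4 gave 0.12, -0.10 and 0.19. In the brightest probe set of COL3A1, the collagen of compliant tissues, both arrays agreed only loosely at 18 h, with 23 and 72. At 46 h they lay closer together, with 6.28 and 8.01.

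In the early part of the first long day, hours 2 and 6, which by this reading of the labels were lit as on the short day, 0 of 77 members passed, where 0.00312% of all probe sets were called. Here 4 members (5.19%) had an unadjusted p below 0.05, against 5.32% of all tested probe sets. ITGA1 had the smallest p of the set, with 150 and 167 at 26 h and 173 and 124 at 30 h, against 219 and 209 at 2 h and 183 and 200 at 6 h. The log2 difference was -0.41 (limma adjusted p = 0.759), on 4 arrays each and without a call. Every one of these first-long-day arrays lay below every one of the short-day arrays. Such separation was not particular to ITGA1: in COL4A6, COL24A1, COL17A1 and COL9A3 the first-long-day arrays all lay above those of the short day. How often it occurred over all probe sets was not counted, so it is no evidence about the set. The next members by p were COL4A6 at 1.68, COL24A1 at 1.46, COL15A1 at 1.16 and LAMA2 at 0.38.

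Between the long days themselves, second minus first, 0 of 77 members passed (0.0905% of all probe sets were called), with 7 members (9.09%) at an unadjusted p below 0.05, against 7.86% of all tested probe sets. DCN had the smallest adjusted p, given above. LUM read 16.2, 31.7 and 42.7 on the second long day and 4.88, 24.3 and 33.1 over all first-long-day arrays, a log2 difference of 0.59 at the matched hours (interval 0.21 to 0.97, limma adjusted p = 0.299). DCN and LUM, relatives that both bind collagen, thus had intervals on opposite sides of 0 without a call. LAMB2 differed by 0.40 (limma adjusted p = 0.423), COL6A2 by 0.54 (limma adjusted p = 0.434) and ITGA4 by -0.78 (limma adjusted p = 0.458).

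No member passed a test of change over time. For any difference among the 21 time points the count was 0 of 77 (0.221% of all probe sets called), and 7 members (9.09%) had an unadjusted p below 0.05, against 6.95% of all tested probe sets, with DCN nearest at a limma adjusted p of 0.281. FMOD, COL3A1, ITGAV and LAMA1 followed with adjusted p of 0.495, 0.529, 0.572 and 0.644. For the daily profile of the short day it was 0 of 77 (0.0624% called), 3 members (3.90%) had an unadjusted p below 0.05, against 4.31% of all, and COL9A1, COL4A6, COL11A1, COL6A2 and ITGB1 had the smallest p. The first long day gave 0 of 77 (0.0624% called), and 9 members (11.7%) had an unadjusted p below 0.05, against 4.21% of all, where the smallest p were those of LAMA1 (limma adjusted p = 0.606), COL3A1, DCN, LUM and FMOD. On the second long day it was 0 of 77 (0.0499% called), and again 9 members (11.7%) had an unadjusted p below 0.05, here against 9.31% of all, with ITGAV (limma adjusted p = 0.297), COL6A3, COL24A1, LAMB1 and ITGA2 nearest. For the difference between the profiles of the second long day and the short day it was again 0 of 77 (0.00312% called), and 4 members (5.19%) had an unadjusted p below 0.05, against 5.78% of all, with ITGAV (limma adjusted p = 0.794), ITGA3, COL24A1, LAMB3 and COL9A1 nearest. Over the 15 single hours, each set against the same hour of the short day or the mean of its neighbours, 0 members passed at any hour, where 0.178% of all probe sets passed at 1 hour or more. The single value nearest to a call was LAMA1, an alpha chain of early basement membranes, at 46 h. Its arrays read 5.25 and 3.51 there, against 30.1 and 35.6 at 22 h (log2 difference -2.93, limma adjusted p = 0.152). This value is from the brightest probe set of LAMA1 alone. In the later-hours comparison of the first long day with the short day, given above, that probe set read -0.61. The dimmer tested probe sets of LAMA1 gave 0.20, -0.18 and -0.15 in that comparison, so the sign depended on the probe set.

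On the second long day several members, most of them dim, had their extreme at 62 h. ITGAV averaged 16, COL6A6 27.9, COL24A1 32.9 and ITGA11 27.9 at this time, the highest of their 21 time points, while COL6A3 at 11, LAMB1 at 23.8 and ITGA3 at 18.4 had their lowest there. This is the time point at which both arrays agreed least. In each of these genes replicate 2 of 62 h was the more extreme array. The log2 signals of replicates 1 and 2 there were 3.46 and 5.77 in COL24A1 and 5.32 and 2.95 in LAMB1. They were 4.12 and 2.24 in COL6A3, and lay closer together in ITGA3, at 4.37 and 4.02. In LAMB1, the arrays of the second long day ranged from 7.72 to 67.8. Without hour 14 of both days, an alternative chosen after the data were seen, 1 of 77 members passed between the second long day and the short day. That member was ITGA1 (limma adjusted p = 0.0229), whereas DCN and FMOD then had adjusted p of 0.131 and 0.105.

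**Figure D4:**
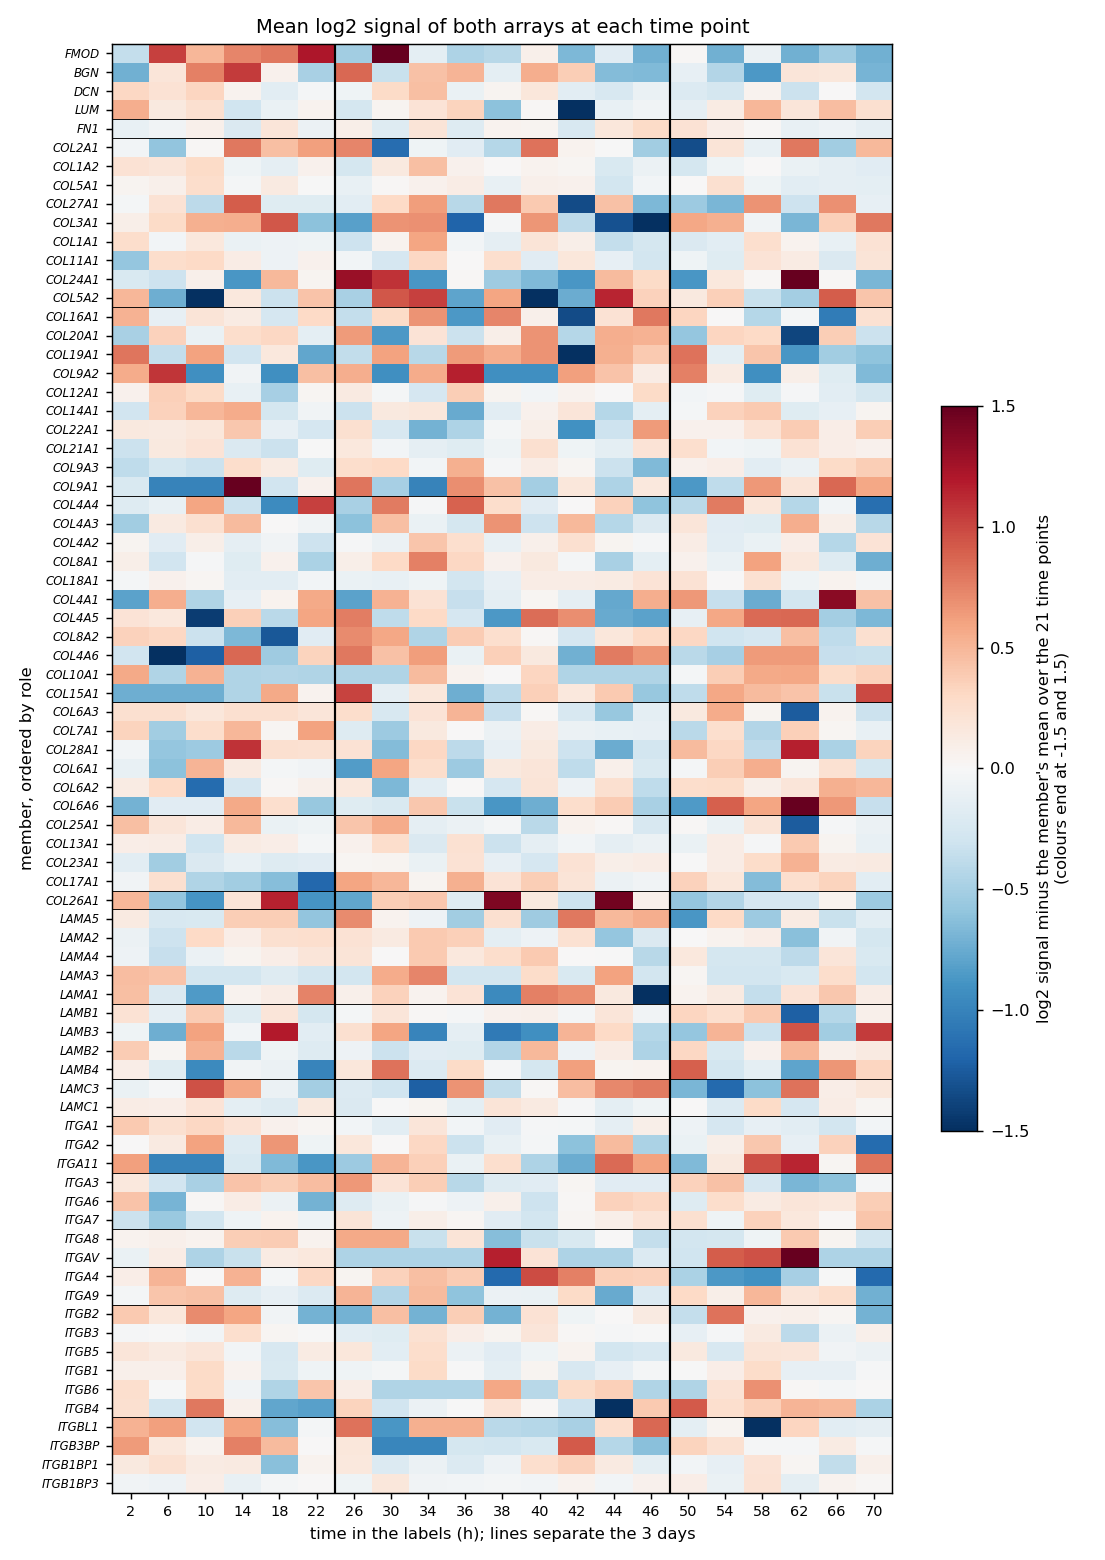
Mean log2 signal of both arrays minus the mean of the member over the 21 time points (colour, ending at -1.5 and 1.5) for the 77 members in rows, ordered by role, at each time in hours (columns, with lines between the 3 days). FMOD turns from mostly red on the short day to blue on the second long day, bright members such as FN1 and ITGB1BP3 stay pale, and several dim members have their strongest colours at 62 h.

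Over the 21 time points some pairs of bright members varied together and others did not. Among the 16 members with a mean signal over 50, the 120 pairwise correlations of mean log2 signal ran from -0.56 to 0.84 with a median of 0.12. In 12 pairs r was over 0.5 and in 39 it was under 0. The highest was between DCN and COL1A2 (r = 0.84, rho = 0.74), followed by the chains of collagen I, COL1A1 and COL1A2 (r = 0.74, rho = 0.67). DCN also followed ITGB1 (r = 0.60), COL1A1 (r = 0.58), ITGA1 (r = 0.58) and LAMC1 (r = 0.57), but not FN1 (r = -0.04) or COL18A1 (r = -0.09). The lowest was between COL13A1 and LAMC1 (r = -0.56). All points share their arrays, scaling and RNA pools, and pairs of other bright probe sets were not computed, so these values describe the series only. At 34 h, where DCN was highest, COL1A2 read 142 and 102, and its next highest arrays on the first long day were 108 at 40 h and 105 at 46 h.

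**Figure D5:**
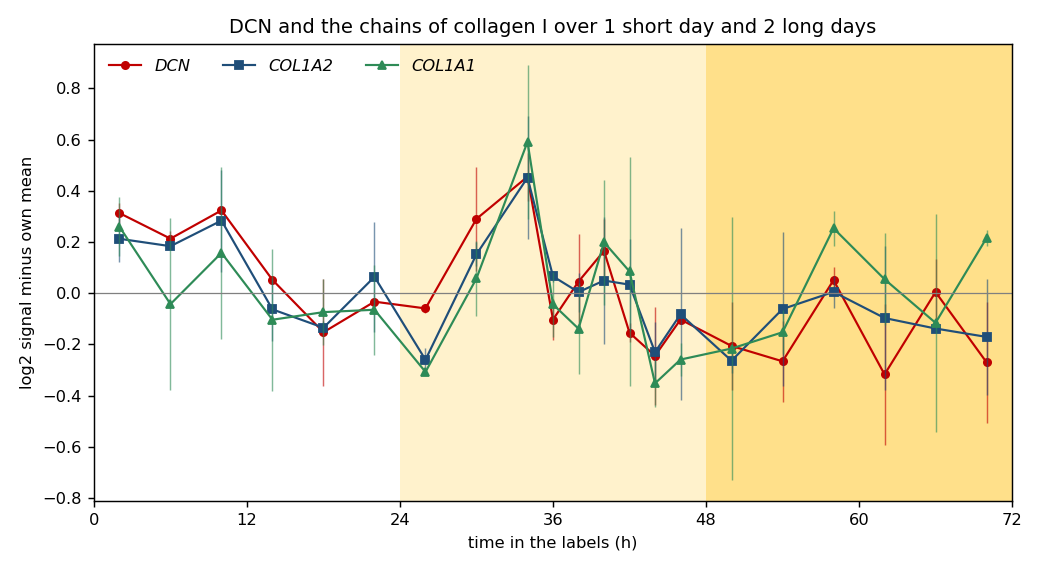
Log2 signal of DCN, COL1A2 and COL1A1 minus the own mean of each (y axis) at the 21 times in hours (x axis), with the mean of both arrays as symbols and both arrays as the ends of each vertical line, the short day on white and the 2 long days on yellow. All 3 peak at 34 h and lie low at 44 h, and on the second long day DCN and COL1A2 stay mostly below 0.

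Across the 12289 genes whose brightest probe set was tested, the profile most like that of DCN was FAM53A (r = 0.86 over 21 time points), then SERPINF1 (r = 0.84), the member COL1A2 (r = 0.84), PHF20L1 (r = 0.82) and TARDBP (r = 0.80). For FMOD the most alike were UBL3 (r = 0.80), ELOVL6 (r = 0.75), BAZ2B (r = 0.74), CPSF6 (r = 0.74) and AvBD9 (r = 0.72). FMOD was at the floor on 18 arrays, so that part of its profile is the floor.

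Other matrix genes, outside the set, were followed as well. Of 83 tested genes that build, cut or cross-link matrix, 0 passed as higher and 3 as lower on the second long day, with a median of 0.04. Among the 12289 genes whose brightest probe set was tested 2.08% were called, 1.60% as lower. At an unadjusted p below 0.05 there were 13 of the 83, against 11.9% of all tested probe sets. MMP24, a membrane-bound metalloproteinase of neurons, averaged 65.4 ± 12.4 on the second long day and 105 ± 22.2 on the short day (SD, n = 12 each, log2 difference -0.68, limma adjusted p = 0.000471). TIMP3, a metalloproteinase inhibitor held in the matrix, averaged 346 ± 38.3 and 437 ± 43.4 (-0.34, limma adjusted p = 0.00537). NCAN, the brain proteoglycan neurocan, averaged 616 ± 68.7 and 747 ± 43.9 (-0.28, limma adjusted p = 0.0155). Over hours 10 to 22 of the first long day 0 of the 83 passed, where 0.0561% of all tested probe sets were called. At an unadjusted p below 0.05 there were 6 of the 83, against 5.63% of all tested probe sets. The nearest were P4HA1, P4HB and ADAMTS5 at 0.30, 0.37 and 0.36, of which the first and second hydroxylate collagen prolines and the third cuts proteoglycans. Of 42 tested genes for integrin signalling and adhesion, 1 passed as higher and 0 as lower on the second long day, and 5 had an unadjusted p below 0.05. The called gene was CD151, a tetraspanin that binds laminin receptors, at 170 ± 38.9 on the second long day and 121 ± 21.6 on the short day (0.48, limma adjusted p = 0.0071). DOCK1 and DDR1, a cytoskeletal regulator and a collagen receptor kinase, differed by 0.91 and 0.22 without a call. On the first long day 0 of the 42 passed (5 at an unadjusted p below 0.05), with DOCK1 at 1.11, DDR1 at 0.28 and PARVB, an integrin adaptor, at 0.62.

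Markers of cells that carry matrix genes were followed beside the members. Of 12 tested markers of meninges and fibroblasts, FMOD and DCN passed and the other 10 did not. The summed signal of this list ran from 1200 to 1719 on the second long day and from 1156 to 1588 on the short day, but most of it is DCN itself and PTGDS, a prostaglandin synthase, which differed with opposite signs. PTGDS averaged 679 ± 155 and 558 ± 77.8 on these days (log2 difference 0.27, limma adjusted p = 0.103). Of the 10 markers that are no members, 6 were above 0 and 4 below, with a median of 0.02, and without PTGDS the summed signal of the other 9 ran from 123 to 201 on the second long day and from 123 to 165 on the short day. Of 12 endothelial markers 0 passed in either direction (0 at an unadjusted p below 0.05), with sums of 374 to 495 and 383 to 487 on these days. Of 8 mural cell markers 0 passed (1 at an unadjusted p below 0.05), with sums of 402 to 541 and 383 to 576. No marker of these 3 lists was at the floor on all arrays. Of the 8 leukocyte markers 0 passed as well (1 at an unadjusted p below 0.05). Among the 12289 genes whose brightest probe set was tested 2.08% were called. Of all tested probe sets 11.9% had an unadjusted p below 0.05. Counts of 0 in lists this short are therefore no evidence about these cells.

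Some markers of neighbouring cells and tissue differed between the days. VIM, a filament protein of tanycytes, was higher on the second long day (3177 ± 974 against 1723 ± 237, log2 difference 0.84), the only call among 8 markers of tanycytes and ependyma, and SYT1 was the only call among 7 neuronal markers (0.27). The pituitary genes TSHB and CGA were higher (2.12 and 1.09), as 2 of 7 such markers. ALB, a liver transcript, averaged 12 ± 5.26 on the second long day and 105 ± 127 on the short day (-2.65), and TTR, of choroid plexus, 27.3 ± 8.23 and 65.5 ± 66.9 (-0.90). ALB was the only call among 7 liver markers, of which 2 lay above 0. TTR was the only call among 7 choroid plexus markers, of which 5 lay above 0, with a median of 0.12. Each gene named in this paragraph so far was a call at a limma adjusted p below the threshold, and 0 of 9 hypothalamic markers was. Among the 12289 genes whose brightest probe set was tested 2.08% were called. Over hours 10 to 22 of the first long day, 2 of 7 pituitary markers were called as higher. As lower, 2 of 7 liver and 1 of 7 choroid plexus markers were called there. No tanycyte, neuronal or hypothalamic marker was, and 0.0561% of all tested probe sets were. What part a changed share of such tissue had in the lower ITGA1, DCN and FMOD signals was not tested.

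Where a gene had several tested probe sets, as 48 members did, all of them had the same sign in 23 members. How often this held among other genes was not counted, so it is no evidence about the set. None of the 90 tested probe sets that were not the brightest of their gene passed on the second long day. Among all 32057 tested probe sets 1.37% were called, so the lack of calls among these 90 is no evidence about them either. ITGA1, DCN and FMOD each have a single probe set, so no second probe set speaks to their calls.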

How the data were processed

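The authors hybridised biotin-labelled cRNA from pooled RNA to Affymetrix chicken arrays and made the deposited intensity values, one linear signal per probe set, with GCOS 1.2, per the submitters' processing notes. No source used here gives the scaling target or the detection calls. Each of the 42 arrays was scaled so that its 2% trimmed mean over 38439 non-control probe sets was 32.42 (factors 0.796 to 1.29), values under the floor of 3.509 (each array's 25th percentile, median taken across arrays) were raised to it, and log2 was taken. limma 3.58.1 in R 4.3.3 fitted 1 mean per time point to all arrays (21 residual degrees of freedom, variance trend). Tests were two-sided, and p-values were adjusted by Benjamini-Hochberg over the 32057 tested probe sets, at a threshold of 0.05, after a check on simulated data. Of the probe sets, 27168 had 1 gene symbol in the platform annotation, which can be old. Number of arrays limits precision.

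The members and gene lists were chosen with earlier results of these data known. Named are FMOD, DCN, called members, the 15 smallest p in each long-day comparison, the 5 smallest in each other, the 10 brightest members and the brightest of each role. From the lists, called genes and the smallest p are named. Replicate numbers did not pair arrays: same-numbered arrays of different time points correlated at -0.035 to 0.038 in their deviations, with 0 of 210 pairs of time points over 0.1. Alternatives covered scaling, floor, filter, variance model, arrays fitted, covariates, probe set choice and leaving out each array.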

Additional observations from a re-analysis of the deposited data

How the results depend on the processing

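The 3 calls on the second long day held to different degrees over 56 alternatives, 42 of which left out 1 array. ITGA1 stayed past the threshold in 54 of 56, FMOD in 42 of 55 and DCN in 31 of 56, and all kept their sign in each. The count of 3 called members became 11 with deposited values used without scaling, 1 without a variance trend, 1 when only the compared arrays were fitted, 1 without hour 14 of both days (chosen after seeing the data) and 0 with array brightness as a covariate. It was 2 under quantile normalization, with the floor at 10, without the filter, under a stricter filter and with the mean of all probe sets. Leaving out 1 array gave 1 to 3. The count was 1 without replicate 1 of 2 or 58 h or replicate 2 of 6, 10, 14, 18, 22, 50 or 66 h. With the replicate number as a block it stayed at 3, and that fit changed no call of ITGA1, FMOD or DCN. The cause of these changes was not tested. Unscaled values also gave 2 calls for second minus first long day and 1 among the 21 time points. They moved the median of all probe sets by -0.23, and scaling to the same median moved it by -0.11. The median over members (-0.02) thereby became -0.28 and -0.15. A fit that left out 1 array had a single array at that time point. Without replicate 1 of 62 h, the mean there was replicate 2 alone, the more extreme array in each gene named above for 62 h. Calls for a daily profile or a single hour from such a fit rest on 1 array there, and no change of a member is read from them. Leaving out 1 array gave 0 to 1 calls on the first long day over hours 10 to 22 (1 without replicate 1 of 10 h), 0 to 1 for its daily profile (1 without replicate 1 of 38 h), 0 to 4 for the profile of the second long day (4 without replicate 1 of 62 h) and 0 to 6 at single hours (6 without replicate 1 of 62 h, 1 without either array of 38 h).

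Bright members near 0 on the second long day changed sign, none with a call. Without scaling ITGB1BP3, FN1, COL18A1 and COL13A1 read -0.22, -0.23, -0.15 and -0.23, and with the same median -0.085, -0.097, -0.018 and -0.10. Quantile normalization gave ITGB1 0.060, LAMC1 0.047, COL1A1 0.017 and COL11A1 0.027, brightness as a covariate ITGB1BP3 -0.066 and COL1A1 0.073, and the actin ratio COL11A1 0.0022. The mean of all probe sets gave COL1A2 0.025, LAMC1 0.047 and COL13A1 -0.053, and for the first long day COL4A2 -0.097 and COL8A1 -0.13. Without hour 14 ITGB1 read 0.014 and COL13A1 -0.012. Leaving out 1 array gave ITGB1 -0.066 to 0.031, FN1 -0.029 to 0.10, LAMC1 -0.087 to 0.0072, COL1A1 -0.10 to 0.070, COL11A1 -0.076 to 0.068 and COL13A1 -0.043 to 0.11, and DCN on the first long day -0.039 to 0.065. Under the stricter filter FMOD was not tested.

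Limits are the 2 arrays per time point, short-day arrays shared by several comparisons, dim signals near the floor, probes designed on chicken sequence, a single probe set behind each call, and the lower brightness of the second-long-day arrays, which lies with the day.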
